A study of Homo sapiens with 3 samples.

Results

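Both multidrug resistant SupB15-MR clones of the series were compared with each other across all probe sets of 1 array each, and they differed by 2-fold or more in few genes. The clones were the SupB15-MR library named biological rep1 and the library named biological rep2, which is described as MR5, and they were 2 of the 3 arrays of the series. The remaining array was from SupB15, a drug sensitive cell line from childhood B-precursor acute lymphoblastic leukemia (ALL), and it served only as the reference for the change of each clone. The MR cells were the survivors of SupB15 cultured in medium conditioned by HS-5 bone marrow stromal cells and treated with mitoxantrone, a topoisomerase II poison, after which they were kept without drug. All 3 cultures were grown in RPMI1640 with serum and without drug before RNA was taken. Each clone was 1 culture and 1 array, so no test was possible and every difference below is that between 2 libraries. The differences between clones and those between cultures, RNA preparations or hybridizations cannot be told apart.

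Subclones that survive the same drug selection can descend from different surviving cells. Such clones share what the survivors have in common and may differ in features that are inherited in one lineage and not in the other. In ALL this is of interest because relapsed disease often arises from a minor subclone of the diagnostic population.

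The values were log2 RMA values, where RMA is a summary of the probes of each probe set after normalization between arrays, and a difference of 1 is 2-fold. Of 54675 probe sets, 44314 had a value above 3.47, the 20th percentile of all values, in at least 1 clone and were kept. Differences are MR5 minus rep1 throughout. Of the kept probe sets, 116 were at least 2-fold higher in MR5 (0.262%) and 100 at least 2-fold lower (0.226%). A gene was represented by its kept probe set with the highest mean in both clones, which gave 17111 genes. Of these, 50 were at least 2-fold higher in MR5 (0.292%) and 37 at least 2-fold lower (0.216%). The standard deviation of the differences over the kept probe sets was 0.232 and their median size was 0.0463. Between a clone and SupB15 the standard deviation was 1.34 for both clones. In rep1, 3652 genes were at least 2-fold above SupB15 (21.3%) and 2073 at least 2-fold below (12.1%), and in MR5 3719 were above (21.7%) and 1999 below (11.7%). Both of these comparisons use the same SupB15 array, which stood apart in its control probe sets. The 18S ribosomal RNA had a median of 6.49 in SupB15, 13.97 in rep1 and 13.92 in MR5, and the hybridization spikes one of 9.71, 12.61 and 12.11. Their part in the changes from SupB15 was not tested. The values of a gene below are those of its chosen probe set, and another probe set of the same gene can place SupB15 elsewhere.

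**Figure D1:**
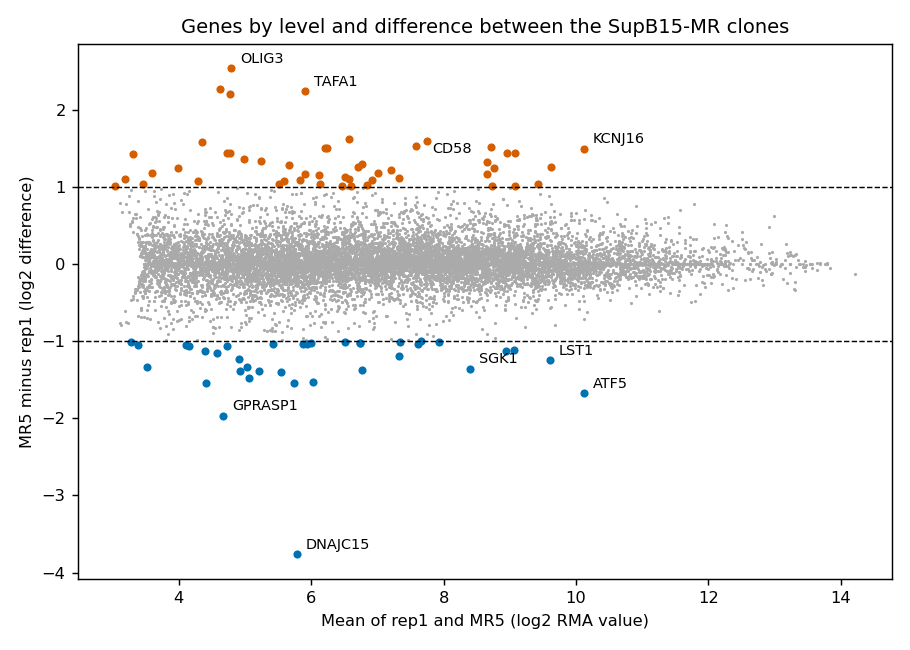
Difference between the clones (MR5 minus rep1, log2) against the mean log2 RMA value of both clones for 17111 genes, with dashed lines at 2-fold. Orange points are the 50 genes at least 2-fold higher in MR5, blue points the 37 at least 2-fold lower, and grey points the rest. The genes past 2-fold are spread over low and high levels, and DNAJC15 lies far below the others.

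The 2 libraries were alike in their technical readouts, with 1 exception. The array medians were 5.27 in rep1 and 5.28 in MR5, against 5.08 in SupB15. The 3′ probe set of ACTB, which is well above the 5′ probe set when RNA is degraded or copied from its 3′ end, exceeded it by 2.59 in rep1, 2.43 in MR5 and 0.80 in SupB15. For GAPDH the same difference was -0.09, -0.11 and 0.10 in that order, so the excess was not seen in both genes. None of the 62 control probe sets was 2-fold apart. The 18 probe sets of the hybridization spikes, transcripts added in equal amounts before hybridization, were lower in MR5 by a median of -0.56 (from -0.68 to -0.05), while the 27 for poly(A) spikes had a median of 0.11. The part of the hybridization in the results was not tested. Identical values in both clones to all deposited digits were found for 17617 kept probe sets (39.75%), so that a difference of 0 is common and does not by itself show an equal level. Of 16 markers of precursor B cells, 15 had a value, all 15 were above the percentile and 14 were above the array median in each clone. DNTT, the polymerase that adds bases at the joins of rearranging receptor genes, was at 13.37 in both clones, and VPREB1, a part of the surrogate light chain, was the marker below the median at 4.22 and 3.94. The log2 of the summed marker levels was 14.77 in rep1 and 14.69 in MR5. For stroma, the cell type that conditioned the medium, 4 of 15 markers were above the array median in each clone, the sums were 9.11 and 9.16, and LUM and POSTN were at or below the percentile.

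DNAJC15 was the gene furthest apart in either direction. It encodes a co-chaperone of the mitochondrial inner membrane, also called MCJ, which restrains the respiratory chain and whose loss has been described in drug resistant tumor cells. Its log2 value was 3.68 in SupB15, 7.67 in rep1 and 3.91 in MR5, which is 13.6-fold lower in MR5 than in rep1. SupB15 and MR5 thus lay close together near the bottom of the scale and rep1 stood alone. The second probe set of DNAJC15 gave 3.53, 4.89 and 3.35 in the same order, a difference of -1.54. The 5 measured genes on either side in gene order on chromosome 13 differed by -0.32 to 0.14, but 4 of these 10 gave identical values in both clones and several were near the percentile in rep1, where a lower value could hardly be seen.

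After DNAJC15, GPRASP1 and the genes that follow were among those furthest lower in MR5. GPRASP1, a sorting protein of G protein-coupled receptors, was at 5.17 in SupB15, 5.66 in rep1 and 3.69 in MR5. ATF5, a transcription factor of the stress response that is described again with the amino acid response genes, was at 10.47, 10.96 and 9.29. SGK1, a kinase induced by serum and glucocorticoids, was at 5.29, 9.08 and 7.72. In SGK1 both clones were above SupB15, whereas for GPRASP1 SupB15 lay between the clones. For ATF5 it lay between them on this probe set and below both on its other 3. CD69, an early activation antigen of lymphocytes, was at 4.49 in SupB15, 6.25 in rep1 and 4.85 in MR5. LST1, a leukocyte transcript encoded near the TNF locus, was at 5.94, 10.23 and 8.98. All 6 kept probe sets of LST1 were at least 2-fold lower in MR5 (from -1.24 to -1.11), the most of any gene. All 6 are of the _x_at kind, and how far they repeat the same measurement was not tested. GNAI1, the alpha subunit of an inhibitory G protein, was at 9.02, 5.91 and 4.52, so that both clones were below SupB15 and MR5 further so.

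The others of the 15 genes furthest lower were DDX60 (-1.54) and GBP2 (-1.34), both interferon-induced genes, CSGALNACT1 (-1.54), an enzyme of chondroitin sulfate synthesis, PLEK (-1.53), a substrate of protein kinase C in blood cells, MOXD1 (-1.47), TMEM273 (-1.38), LINC02806 (-1.37) and FZD7 (-1.33), a Wnt receptor. The second probe sets of PLEK, MOXD1 and FZD7 differed by only -0.47, -0.08 and -0.39, whereas every probe set of LINC02806 passed 2-fold. GBP2 was at 2.85 in MR5, below the percentile of 3.47. Of 27 kept genes on the interferon response list, which holds neither DDX60 nor GBP2, 17 were higher in MR5, 7 lower and 3 identical, with a median of 0.07 and none 2-fold apart. Over all genes 32.6% were higher in MR5.

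OLIG3 was the gene furthest higher in MR5. It is a helix-loop-helix transcription factor of neural development and was at 3.02 in SupB15, 3.53 in rep1 and 6.06 in MR5, with rep1 close to the percentile of 3.47. TOX-DT, the divergent transcript beside TOX, was at 8.28, 3.48 and 5.76, with rep1 also close to the percentile. TAFA1, a secreted chemokine-like protein, was at 2.40, 4.78 and 7.02. In TOX-DT both clones were below SupB15, and in TAFA1 both were above it. ABCG1, a cholesterol efflux transporter, was 2.20 higher in MR5 on 1 of its 3 kept probe sets (5.36, 3.68 and 5.88), and both other probe sets gave the same value in the clones.

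KCNJ16 and KCNJ2 were among the 15 furthest higher. KCNJ16, an inward rectifier channel subunit, was at 7.10 in SupB15, 9.37 in rep1 and 10.87 in MR5, and its second probe set was 1.86 higher in MR5. KCNJ2, which encodes another inward rectifier channel, was at 5.17, 6.81 and 8.35. For both, SupB15 was lowest and MR5 highest. KCNA5, a voltage-gated potassium channel gene, was lower in MR5 by -1.23. SEMA3A, a secreted guidance protein, was at 5.44, 6.95 and 8.54, with both probe sets more than 2-fold apart. The rest were TRIB1 (1.62), a pseudokinase, on 1 of 3 probe sets, XKR4, the long noncoding RNAs LNCEGFL7OS (1.52) and TUNAR (1.51), LAMB4, a laminin subunit that was at 2.38 in SupB15, 5.49 in rep1 and 6.99 in MR5, NCALD (1.44), a neuronal calcium sensor, GPRC5B (1.44), an orphan receptor, and RABGAP1L (1.44). None of the 87 genes 2-fold apart were direct neighbours in measured gene order. KCNJ16 and KCNJ2, however, both lie on chromosome 17, within the same stretch of 103 measured genes.

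**Figure D2:**
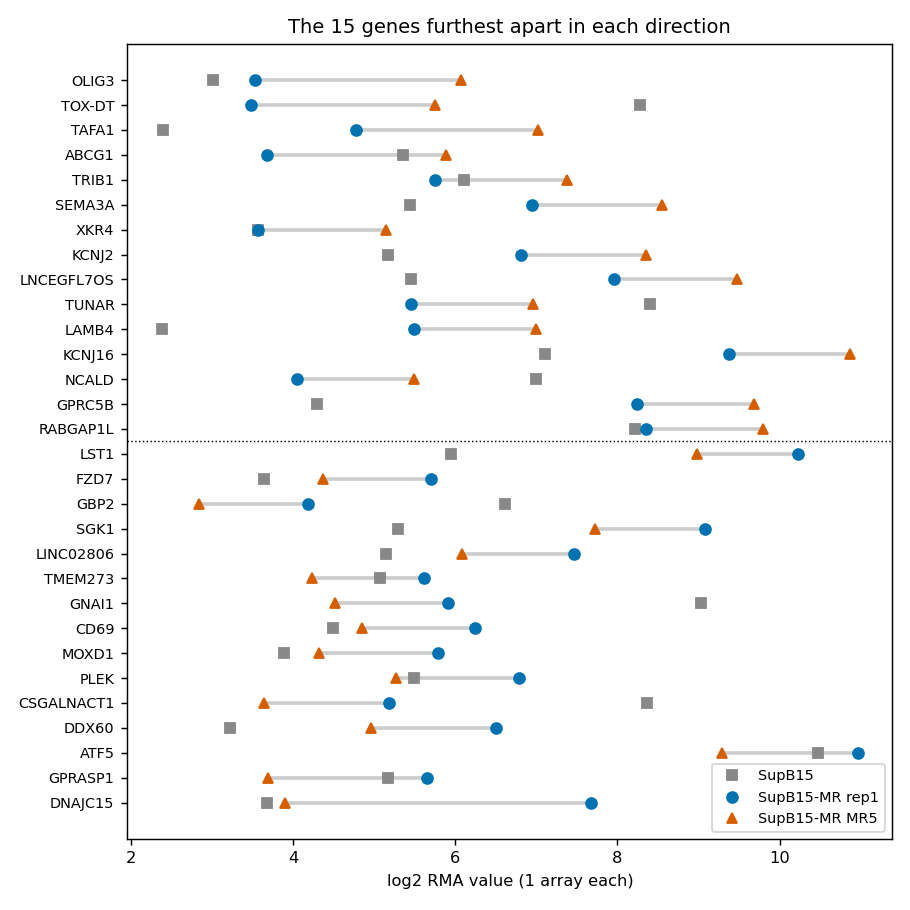
log2 RMA values of the 15 genes furthest higher in MR5 (top) and the 15 furthest lower (bottom) in SupB15 (grey squares), rep1 (blue circles) and MR5 (orange triangles), with 1 array per point and a line joining the clones. SupB15 lies outside the interval between the clones for most genes, and for DNAJC15 it lies beside MR5.

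For some genes several probe sets, which share the array and the RNA, gave the same difference. Among 8719 genes with several kept probe sets, 12 had at least 2 that were 2-fold higher in MR5 and none 2-fold lower (0.138%), and 8 had the opposite (0.0918%). CD58, the ligand of CD2 on T cells and an antigen used to follow residual B-precursor ALL, was at 9.15 in SupB15, 7.99 in rep1 and 9.32 in MR5. Its 5 probe sets were all higher in MR5, 4 of them by 2-fold or more. MR5 was thus close to SupB15 on this probe set and rep1 lower. HEY2, a repressor downstream of Notch, was at 6.28, 4.01 and 5.45. JAG1, a Notch ligand, had 3 of 6 probe sets lower in MR5 by 2-fold or more, although its brightest gave 6.31 in rep1 and 6.26 in MR5. SCD, which makes monounsaturated fatty acids, was at 12.29, 9.61 and 8.50, and both clones were below SupB15. The others higher in MR5 were KCNJ16, SDC2, SEMA3A, LAMB4, PRUNE2, SPP1, SALL1, RABGAP1L, GPRC5B and SORBS2, and the others lower were DNAJC15, LINC02806, GNAI1, TXLNG, LST1 and ATF5. Of the 87 genes 2-fold apart, 45 had 1 kept probe set and 42 had several. In 16 of the 42 another probe set was 2-fold apart the same way and in 0 the other way. Of their 74 other probe sets, 58 had the same sign, 5 the opposite sign and 11 gave identical values.

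The position of SupB15 differed among the genes. Of the 50 genes higher in MR5, SupB15 was below both clones in 26, between them in 12 and above both in 12, and it was nearer to rep1 in 35 and to MR5 in 15. Of the 37 genes lower in MR5, it was below both in 19, between in 5 and above both in 13, and it was nearer to rep1 in 16 and to MR5 in 21. In 0 genes were the clones on opposite sides of SupB15 by 2-fold or more each. At the edge of the threshold, FAM43A at -1.0017 was just inside and TRIB3 at -0.9978 just outside. In 9 of the 87 genes 2-fold apart, the lower of both clones was at or below the percentile of 3.47.

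A further difference concerned whole chromosomes. Of 601 genes on chromosome 8, 60.2% were higher in MR5 and 9.98% lower, with a mean difference of 0.19. Of 687 genes on chromosome 9, 60.1% were higher and 9.32% lower, with a mean of 0.18. On the other 21 chromosomes together, 15764 genes, 30.4% were higher and 29.3% lower, with a mean of 0.0014. Taken one at a time, these 21 had from 23.2% higher, on chromosome 13, to 36.5%, on chromosome 19, and means from -0.03 to 0.03. The shift on chromosomes 8 and 9 was small for each gene and wide across genes. No DNA measurement of the clones was analysed here, and what underlies the shift was not tested.

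**Figure D3:**
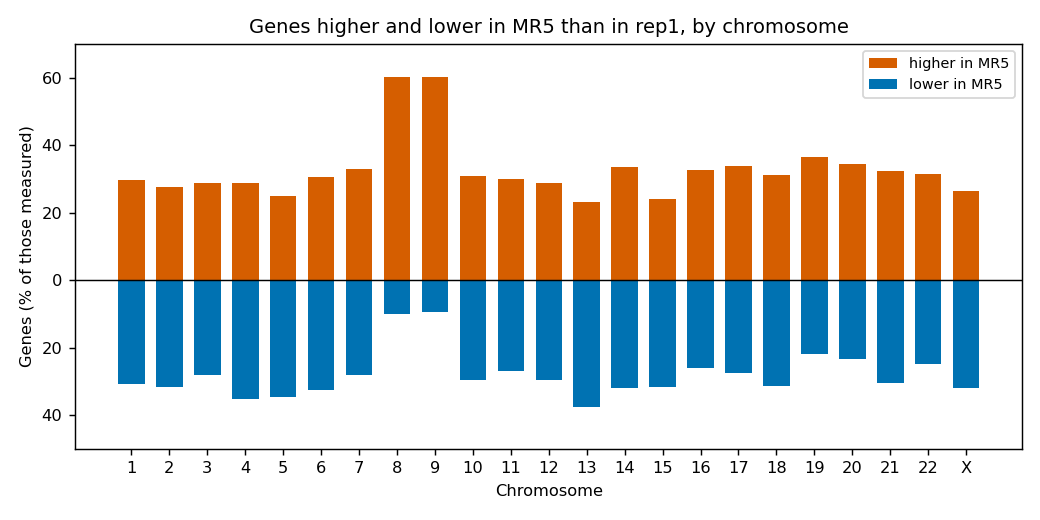
Percent of measured genes higher (orange, upward) and lower (blue, downward) in MR5 than in rep1, for chromosomes 1 to 22 and X, with genes of identical value left out of both bars. Chromosomes 8 and 9 have 60.2% and 60.1% of genes higher, against 23.2% to 36.5% on the others.

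The shift ran along the full length of both chromosomes. When the measured genes of each chromosome were divided into 10 blocks of neighbouring genes, all 10 blocks of chromosome 8 had more genes higher than lower in MR5, with means from 0.12 to 0.29. The same was true of all 10 blocks of chromosome 9, with means from 0.13 to 0.26. Among the 210 blocks of the other chromosomes, 101 had more genes higher and 99 more lower, and 1 had a mean above 0.1, on chromosome 21. That block of 20 genes holds ABCG1 at 2.20, and 25% of its genes were higher and 30% lower. The lowest block, at -0.17 on chromosome 13, was the one that holds DNAJC15, with 18.8% of its 32 genes higher and 59.4% lower. Its mean includes DNAJC15 itself at -3.76, and its median was -0.05.

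**Figure D4:**
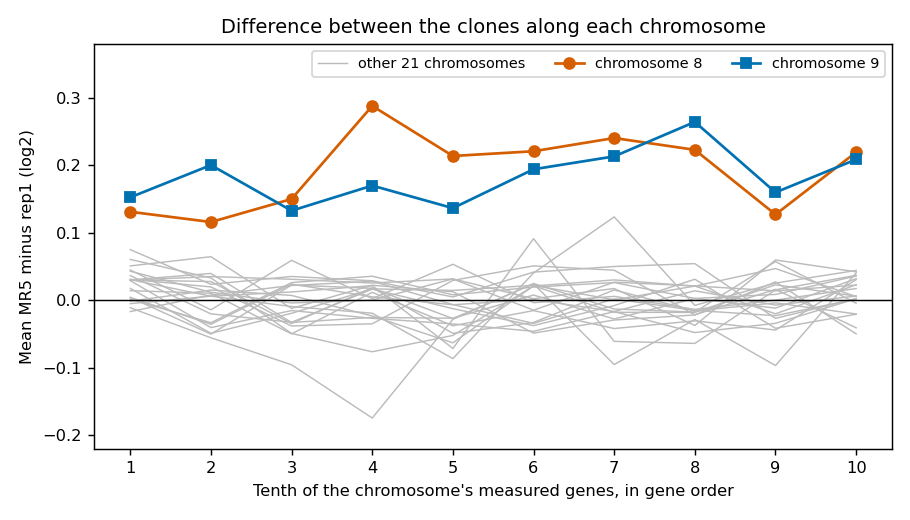
Mean difference between the clones (MR5 minus rep1, log2) in 10 consecutive blocks of measured genes, in gene order, for chromosome 8 (orange), chromosome 9 (blue) and the other 21 chromosomes (grey lines). All blocks of chromosomes 8 and 9 lie above 0.1, as does 1 of the 210 other blocks.

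The shift was seen mainly in genes with a clear signal. Among the genes of the highest of 4 level classes, set by the mean of both clones, 90.5% of 148 genes on chromosome 8 were higher in MR5 (median 0.32), as were 93.9% of 163 on chromosome 9 (median 0.34) and 36.5% of 3952 on the other chromosomes (median 0). In the lowest of the 4 classes, the shares were 31.2%, 24.8% and 23.6%. Relative to SupB15, the mean of chromosome 8 in all genes was 0.02 in rep1 and 0.21 in MR5, and that of chromosome 9 was 0.28 and 0.46. On the other chromosomes together it was 0.27 in both clones, with a range of 0.09 to 0.54 in rep1 and 0.10 to 0.53 in MR5 over single chromosomes. By the mean, chromosome 8 of rep1 lay below the range of the others, while its value in MR5 and both values of chromosome 9 lay within it. By the median chromosome 8 of rep1 was at 0, as were chromosomes 1, 11, 12, 19 and 22, so its place depended on the measure.

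Of the 50 genes at least 2-fold higher in MR5, 16 were on these 2 chromosomes, which hold 1288 of the genes. On chromosome 8 they were TOX-DT, TRIB1, XKR4, NCALD, KHDRBS3 (1.26), SQLE (1.17), SCRIB (1.09), HSF1 (1.02) and TBC1D31 (1.01), and the 1 gene at least 2-fold lower was CSGALNACT1. On chromosome 9 they were LNCEGFL7OS, CD72 (1.21), NTNG2 (1.18), SPACA9 (1.13), PRUNE2 (1.10), ASTN2 (1.09) and S1PR3 (1.08), and the 1 lower was ASS1. On the other chromosomes 34 of 15764 genes were at least 2-fold higher, which is 0.216%. ASS1, which makes the precursor of arginine, was at 11.44 in SupB15, 9.50 in rep1 and 8.37 in MR5.

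Among the 43 gene lists, the amino acid response was the one with all its members lower in MR5. When cells lack amino acids or meet other stress, the transcription factor ATF4 is translated and induces genes for amino acid synthesis, uptake and export, together with factors that slow growth. Among these is ASNS, asparagine synthetase, known in ALL because leukemic cells with little of it are killed by asparaginase. Of 19 genes on this list 18 were kept, and all 18 were lower in MR5, with a median of -0.46. Over all genes 27.9% were lower, with a median of 0. None of the 18 passed 2-fold, and the median was the lowest of the 43 lists. Outside the lists, all 7 measured genes encoded by the mitochondrial genome were lower in MR5 as well, with a median of -0.24. Of the 31 kept probe sets for the genes of the ATF4 list, 26 were lower in MR5, 2 higher and 3 identical.

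**Figure D5:**
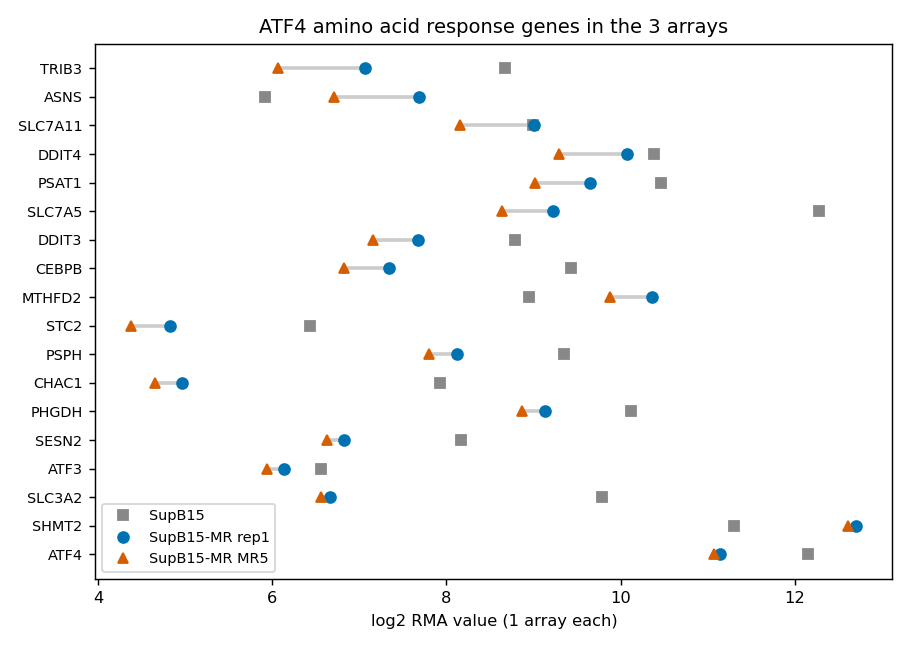
log2 RMA values of the 18 measured genes of the ATF4 amino acid response in SupB15 (grey squares), rep1 (blue circles) and MR5 (orange triangles), ordered by the difference between the clones, 1 array per point. Every MR5 value lies to the left of the rep1 value, and SupB15 lies to the right of both for most genes.

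ASNS was at 5.92 in SupB15, 7.68 in rep1 and 6.71 in MR5, a difference of -0.97. TRIB3, a pseudokinase that feeds back on ATF4, was at 8.67, 7.07 and 6.07, but its second probe set was 0.20 higher in MR5. SLC7A11, the cystine importer that supplies glutathione synthesis, was at 9.0001, 9.0037 and 8.1597, with all 3 probe sets lower. In ASNS both clones were above SupB15 and in TRIB3 both were below, whereas the 3 probe sets of SLC7A11 placed SupB15 differently. DDIT4, an inhibitor of mTORC1, was at 10.38, 10.07 and 9.29. Of the serine and one-carbon enzymes, PSAT1 differed by -0.63, MTHFD2 by -0.48, PSPH by -0.31, PHGDH by -0.27 and SHMT2 by -0.10. PSAT1 lies on chromosome 9, where most genes were higher. SLC7A5, a transporter of large amino acids, differed by -0.58 and its partner subunit SLC3A2 by -0.10. The transcription factors DDIT3 (-0.52), CEBPB (-0.51) and ATF3 (-0.19) were lower too, as were STC2 (-0.45), CHAC1 (-0.31) and SESN2 (-0.20). ATF4 itself was at 12.15, 11.14 and 11.07, a difference of -0.06. In rep1, 14 of the 18 were below SupB15 and 4 above, and in MR5 15 were below and 3 above.

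Genes near this pathway that were not on the list gave smaller or mixed values, apart from ATF5. ATF5 is regulated at translation like ATF4, and 3 of its 4 probe sets were lower in MR5 by 2-fold or more. Of 17 kept cytosolic tRNA synthetases, 10 were lower, 3 higher and 4 identical, with a median of -0.06 and a range from -0.28 (TARS1) to 0.13 (RARS1). Of 7 amino acid transporters outside the list, 4 were lower and 3 identical, the lowest being SLC7A1 at -0.29. These 2 groups were chosen after the values of the list were seen. Of 18 genes for ER chaperones and the unfolded protein response, 5 were higher, 6 lower and 7 identical, with a median of 0.

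The promoters of the list were searched for the element that ATF4 and C/EBP factors bind together, because its genes differed in one direction. The letters searched were TGATGNAA on both strands, in the RefSeq promoter windows of GRCh38.p14 from 250 bases before to 50 after each start. Of the 18 genes 15 had a window. By window, 4 of 24 held a match (16.67%), against 3.62% of all 35116. By gene, 4 of the 15 held a match (26.67%), against 4.46% of 27305. In 3 of the 4, ASNS, ATF3 and CHAC1, it lay before the start, and these are shown as 150 bases each, 5′ to 3′ in the direction of the gene, with the match in capitals. In SLC3A2 the match lay 37 bases after the start. A match describes the letters only and binding was not measured. The list is one of genes that ATF4 induces, so its share of matches does not bear on the difference between the clones.
ASNS, chr7:97872409-97872558, minus strand, match beginning 68 bases before the start: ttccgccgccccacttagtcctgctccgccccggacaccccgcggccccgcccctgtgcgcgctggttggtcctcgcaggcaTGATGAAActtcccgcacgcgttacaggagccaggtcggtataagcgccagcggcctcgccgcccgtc
ATF3, chr1:212565157-212565306, plus strand, match beginning 191 bases before the start: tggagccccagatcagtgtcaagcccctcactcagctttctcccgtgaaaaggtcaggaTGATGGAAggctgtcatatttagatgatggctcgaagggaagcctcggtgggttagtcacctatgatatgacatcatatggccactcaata
CHAC1, chr15:40953221-40953370, plus strand, match on the opposite strand beginning 209 bases before the start: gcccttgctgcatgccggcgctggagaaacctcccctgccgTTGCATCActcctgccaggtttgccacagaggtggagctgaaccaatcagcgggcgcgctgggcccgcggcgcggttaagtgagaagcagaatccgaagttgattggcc

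The glucocorticoid response and NF-kappaB targets leaned the same way with fewer members. Glucocorticoids are a backbone drug of ALL treatment. Of 14 genes of this response, 9 were lower in MR5, 3 higher and 2 identical, with a median of -0.14. SGK1 was the 1 member past 2-fold. TXNIP, an inhibitor of thioredoxin, was at 7.48 in SupB15, 9.25 in rep1 and 8.29 in MR5, and TSC22D3, also called GILZ, differed by -0.53 on 1 of 3 probe sets. Of 19 NF-kappaB targets, 11 were lower, 3 higher and 5 identical, with a median of -0.06. ICAM1, an adhesion molecule, was at 5.37, 7.24 and 6.22, TNF at 6.12, 9.11 and 8.20, and LTB, a TNF family ligand, at 6.21, 9.65 and 8.82. In ICAM1, TNF and LTB rep1 was the highest array and SupB15 the lowest. TRAF1 was higher in MR5 by 0.78 and lies on chromosome 9. Of 17 p53 targets 11 were lower (median -0.08), among them ZMAT3 (-0.67) and GADD45A (-0.48), while CDKN1A was at 10.59 in rep1 and 10.51 in MR5.

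The lists that leaned higher in MR5 did so by small amounts. Over all genes 32.6% were higher in MR5 and 27.9% lower, with a median of 0. Of 33 kept replication-dependent histone genes, which are made in S phase, 25 were higher, 7 lower and 1 identical, with a median of 0.20, the highest of the 43 lists. H3C11 was at 11.08 in rep1 and 11.68 in MR5 and H3C8 at 8.84 and 9.43. Several histone probe sets can match near-identical gene copies, so values of single histone genes are uncertain. The 33 genes of the cell cycle list had a median of 0.02, and TOP2A, a topoisomerase that mitoxantrone acts on, was at 10.55 in SupB15, 11.99 in rep1 and 11.49 in MR5 on its chosen probe set. Another probe set of TOP2A differed by -0.47, and a weaker one, at 5.18 in rep1 and 5.72 in MR5, by 0.54. TOP2B was at 12.50, 11.55 and 10.94. Of 16 cholesterol synthesis genes, 11 were higher and 2 lower (median 0.16). SQLE, squalene epoxidase, was at 8.38, 8.07 and 9.24 and lies on chromosome 8. Without it 10 of 15 were higher, with a median of 0.13. Of 19 glycolysis genes 14 were higher and 3 lower (median 0.10), among them PKM (0.42) and ENO1 (0.35), and none lay on chromosomes 8 or 9. Of 43 ribosomal protein genes 26 were higher and 8 lower (median 0.06). All 6 of them on chromosomes 8 and 9 were higher, RPL8 by 0.78, RPL35 by 0.52 and RPL30 by 0.48, and elsewhere 20 of 37 were higher with a median of 0.05.

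Several drug response and surface genes furthest apart within their lists lay on chromosomes 8 and 9. GGH, which removes polyglutamate from folates and methotrexate, was at 11.19 in SupB15, 8.51 in rep1 and 9.50 in MR5 and lies on chromosome 8. FPGS, which adds the polyglutamate, was at 9.91, 6.65 and 7.50 and lies on chromosome 9. The pair of opposing enzymes thus differed in the same direction, and both were below SupB15 in each clone. HSF1, the regulator of heat shock genes, was at 6.68, 6.34 and 7.36 and lies on chromosome 8, and HSPB1, a small heat shock protein of chromosome 7, was at 12.70, 8.56 and 9.58. Of 11 heat shock genes 7 were higher and 3 lower (median 0.11). CD72, a B cell co-receptor on chromosome 9, was at 7.17, 6.60 and 7.81. It was 1 of 2 members past 2-fold among 27 surface antigens of B-precursor leukemia, the other being CD58, and the median of that list was 0. MS4A1, which encodes CD20, was at 7.37, 7.81 and 7.10, and CD52 at 11.97, 11.23 and 11.92.

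Several lists related to drug response had no member 2-fold apart, whereas the glucocorticoid response had SGK1. Over all genes only 0.292% were 2-fold higher and 0.216% 2-fold lower, so that 0 is a usual count for a list of this size. Among the 12 kept ABC transporters of drugs, 5 were higher in MR5, 4 lower and 3 identical, with a median of 0. ABCB4 was the furthest apart, at 7.11 in SupB15, 4.96 in rep1 and 4.12 in MR5. ABCC1 was at 7.82, 10.43 and 10.92 and ABCG2, which exports mitoxantrone, was at 5.59, 5.73 and 6.10. Among the 14 genes of the BCL2 family, PMAIP1, which binds MCL1, was at 11.04, 9.93 and 9.56, and BCL2L1 was 0.39 higher in MR5. Among the 28 antioxidant genes, the furthest besides SLC7A11 were NQO1 (-0.79), GCLC (-0.75) and TXN, thioredoxin, at 0.57. All 3 probe sets of NQO1 were lower in MR5, with a median of -0.22, and the median over the 3 of GCLC was 0. TXN was higher in MR5 on both of its probe sets, which placed SupB15 on opposite sides of the clones (5.79, 9.64 and 10.21 on one, 11.79, 9.42 and 10.03 on the other). No member was 2-fold apart either among the 20 genes of topoisomerases and DNA damage signalling, the 14 of mitochondrial calcium, the 32 of the respiratory chain and ATP synthase, and the 7 that restrain PI3K-AKT signalling, where INPP4B was the furthest at 0.47. With 1 array per clone these values do not show that the clones were equal in these genes.

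In 8 of the 43 lists at least 1 member was 2-fold apart. Besides those above, ACKR3, an atypical chemokine receptor that takes up CXCL12, was at 3.33 in SupB15, 6.09 in rep1 and 7.34 in MR5, among 30 receptors with a median of -0.06. The second probe set of ACKR3 differed by only 0.24. Of 8 metallothioneins 6 were lower and 2 higher (median -0.27), MT1H by -1.04 and MT1M by 1.04 among them. MT1M was at 2.94 in rep1, below the percentile of 3.47, and at 3.98 in MR5. SPIB, a transcription factor of mature B cells, was at 4.49, 8.04 and 7.14, and of 22 B-lineage transcription factors 11 were lower, 9 higher and 2 identical. CASP1 was at 9.75, 7.22 and 7.95 and CASP4 at 8.28, 7.39 and 7.98, and both inflammatory caspases were higher in MR5. CDKN1B, which encodes the cell cycle inhibitor p27, was at 9.63, 7.48 and 6.81. MPO, a myeloid enzyme, was at 6.18, 8.20 and 7.30, while the other 8 kept myeloid markers differed by -0.42 to 0. MALAT1, the long noncoding RNA, was at 7.28, 13.47 and 13.14, so that the clones lay close to each other and far from SupB15.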

How the data were processed

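The authors purified total RNA, amplified it and added biotin by the NuGEN Ovation method, and hybridized it to Affymetrix HG-U133 Plus 2 arrays, 1 each for SupB15, SupB15-MR rep1 and SupB15-MR rep2 (MR5). They summarised the probes with RMA in apt-probeset-summarize, and the deposited values are log2 RMA values per probe set. RMA scales all arrays together and fits few arrays here, and its part in the identical values was not tested. Signal replaces read depth on arrays, and 1 array per clone gives no error.

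From the deposited values, probe sets were kept where the higher clone exceeded the 20th percentile of all values. Probe sets with 1 gene in the platform annotation (34204 of those kept) entered gene counts. Chromosome and gene order came from RefSeq (GRCh38.p14) for 17052 genes. Genes named were the 15 furthest apart in each direction, up to 10 per direction with several concordant probe sets, and up to 4 per list, XIST and Y-linked genes left out. Named beside these were, for completeness, further genes past 2-fold and further list members, chosen after their values were seen. Members, lists and tests were chosen with earlier results of these data known. The code was tested on simulated data. Alternatives varied the filter, centring, normalization (loess, span 0.3, statsmodels 0.14.6; quantile), fold and choice of probe set. Python 3.11.15, pandas 2.3.3 and numpy 2.4.6 were used.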

Additional observations from a re-analysis of the deposited data

How the results depend on the processing

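The counts of genes 2-fold apart stayed within 1.5 times of those reported under every filter, centring, normalization and choice of probe set tried (higher in MR5 36 to 54, lower 26 to 38; 34 and 35 without genes of chromosomes 8 and 9), and 33 of the 50 higher and 24 of the 37 lower genes remained past 2-fold on the mean of all their probe sets. The threshold moved the counts. At 1.5-fold, 860 probe sets and 331 genes were higher and 647 and 200 lower, and at 3-fold 18 and 6 were higher and 12 and 3 lower. Genes with several concordant probe sets numbered 78 higher and 45 lower at 1.5-fold, and 6 and 4 without the probe sets of the _x_at and _s_at kinds, for which fewer probe sets were left. The mean of chromosome 8 ranged from 0.18 to 0.32 and that of chromosome 9 from 0.16 to 0.30, against at most 0.04 on any other chromosome. For the chromosomes every setting but the mean over probe sets was chosen after seeing the data, as were leaving out chromosomes 8 and 9 and the loess setting of the lists. The ATF4 list had all kept members lower under every setting, with medians from -0.47 to -0.35. On the mean of all kept probe sets 52 of 219 named genes moved by more than the standard deviation over all probe sets, among them DNAJC15 (-2.65), TRIB3 (-0.40), ABCG1 (0.73), TRIB1 (0.52) and ATF5 (-1.08), and on this mean no named gene past 2-fold changed sign. Of the 50 genes higher in MR5, 1 changed sign without the _x_at and _s_at probe sets. With the probe set chosen by the mean of all 3 arrays, 1 of the 50 did so. No paired analysis was possible because each clone has 1 array. With 1 array per clone, no difference has a replicate error and genes near background have little signal.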

Other observations

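Among the 46 probe sets 2-fold apart that name no single gene, those furthest apart lay outside the gene-based comparison and had no gene in the annotation used. The probe set 234623_x_at was at 2.23 in SupB15, 9.20 in rep1 and 5.32 in MR5, and 234432_at at 2.17, 9.97 and 6.49. Both were therefore near the bottom of the scale in SupB15, and in MR5 they lay between SupB15 and rep1. In the other direction, 243808_at was at 8.19, 6.57 and 8.61, and 231513_at at 6.46, 7.13 and 9.17.

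In genes above the median level, the median change from SupB15 on chromosome 8 was 0 in rep1 and 0.26 in MR5, and on chromosome 9 it was 0.28 and 0.61. The other chromosomes ranged from 0.09 to 0.75 in rep1 and from 0.12 to 0.77 in MR5. By this measure rep1 lay below the other chromosomes on chromosome 8, and MR5 within their range on both, whereas by the median over all genes chromosome 8 of rep1 was level with several others.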
